A study of Mus musculus with 9 samples.

Results

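The miRNA profile of the healthy mouse glomerulus was described from 485 mouse miRNA probes that carried a value on each of the 3 control arrays, out of 1096 mouse probes and 1135 probes in all. The control group was C57BL/6, female, untreated, kept free of specific pathogens and 9 months of age, with 1 array for each of 3 mice. The study set these controls against B6.MRLc1 mice with glomerulonephritis, whose arrays were not used for the values given here. Glomeruli, the filtering capillary tufts of the kidney, were isolated by perfusion with magnetic beads, and their total RNA was labelled with Hy5 and hybridized to 3D-Gene mouse miRNA chips, which read each probe in a single colour. The preparation is a mixture of podocytes, endothelial cells, mesangial cells and whatever blood and tubule remained with them, so fewer cells of a type and less RNA per cell cannot be told apart.

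The measured quantity is normalized intensity, the fluorescence of a spot above the blank spots of its array, scaled by the authors so that the median of all values listed on an array was 25. It has no unit and runs on a linear scale. A probe's brightness also depends on how well that probe binds its target, and the order and ratios of different miRNAs given below are therefore those of signal and not of molecules. With 1 group of 3 arrays no comparison was tested, and the spread is given as the standard deviation (SD) or the range over the arrays.

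A miRNA is a short RNA cut from a hairpin precursor and loaded into an Argonaute protein, which it guides to messenger RNAs through its seed, the bases near its 5′ end. Members that share a seed form a family with overlapping targets. Either strand of the hairpin can be loaded, and in the older naming used on these chips the strand thought to be rarer bears a star. In podocytes, the epithelial cells that wrap the glomerular capillaries, loss of the enzyme that cuts miRNAs is known to damage the filter, and the miR-30 and miR-26 families are among those studied there.

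Of the 485 members, 299 were matched by name to a mature sequence in RefSeq (build GRCm38.p6), and these held 79.4% of the summed signal. The sequences of 18 of the 20 brightest miRNAs are shown because they hold most of the signal described below. Capitals mark the seed (bases 2 to 8), and the sequences are grouped by seed.
let-7a: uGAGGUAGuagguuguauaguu
let-7c: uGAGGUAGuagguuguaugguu
let-7d: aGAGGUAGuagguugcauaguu
let-7f: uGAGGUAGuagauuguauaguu
let-7b: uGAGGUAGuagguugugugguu
miR-30a: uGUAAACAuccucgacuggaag
miR-30c: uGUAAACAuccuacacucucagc
miR-690: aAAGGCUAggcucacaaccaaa
miR-126-3p: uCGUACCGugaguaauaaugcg
miR-5126: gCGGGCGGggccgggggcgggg
miR-23a: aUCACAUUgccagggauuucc
miR-29a: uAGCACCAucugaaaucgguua
miR-26a: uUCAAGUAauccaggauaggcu
miR-3968: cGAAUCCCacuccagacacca
miR-5100: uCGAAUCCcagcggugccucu
miR-24: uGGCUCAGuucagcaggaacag
miR-3473b: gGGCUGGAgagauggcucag
miR-762: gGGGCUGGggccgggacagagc
The remaining members of the 20 were miR-23b and miR-3960. Within let-7, let-7a differed from let-7c and from let-7f at 1 of 22 positions each, and from let-7b and let-7d at 2 each. How far probes for such near-identical strands also bound their relatives was not tested, so the split of signal inside a family is less certain than its sum.

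The signal of the healthy glomerulus was held by few miRNAs. Of the 485, 14 held 50% of the summed signal (13, 14 and 14 on arrays 1, 2 and 3), 31 held 75%, 61 held 90% and 98 held 95%. The 10 brightest held 42.1%, with a range over arrays of 40.9% to 42.8%, and the 20 brightest held 63.7% (62.8% to 64.6%). By level, 11 miRNAs averaged 10000 or more, 58 averaged 1000 or more and 153 averaged 100 or more. At the other end 199 averaged under 25 and together held 0.756% of the signal. The median member stood at 35.7 and the dimmest, miR-669n, at 6.67.

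**Figure D1:**
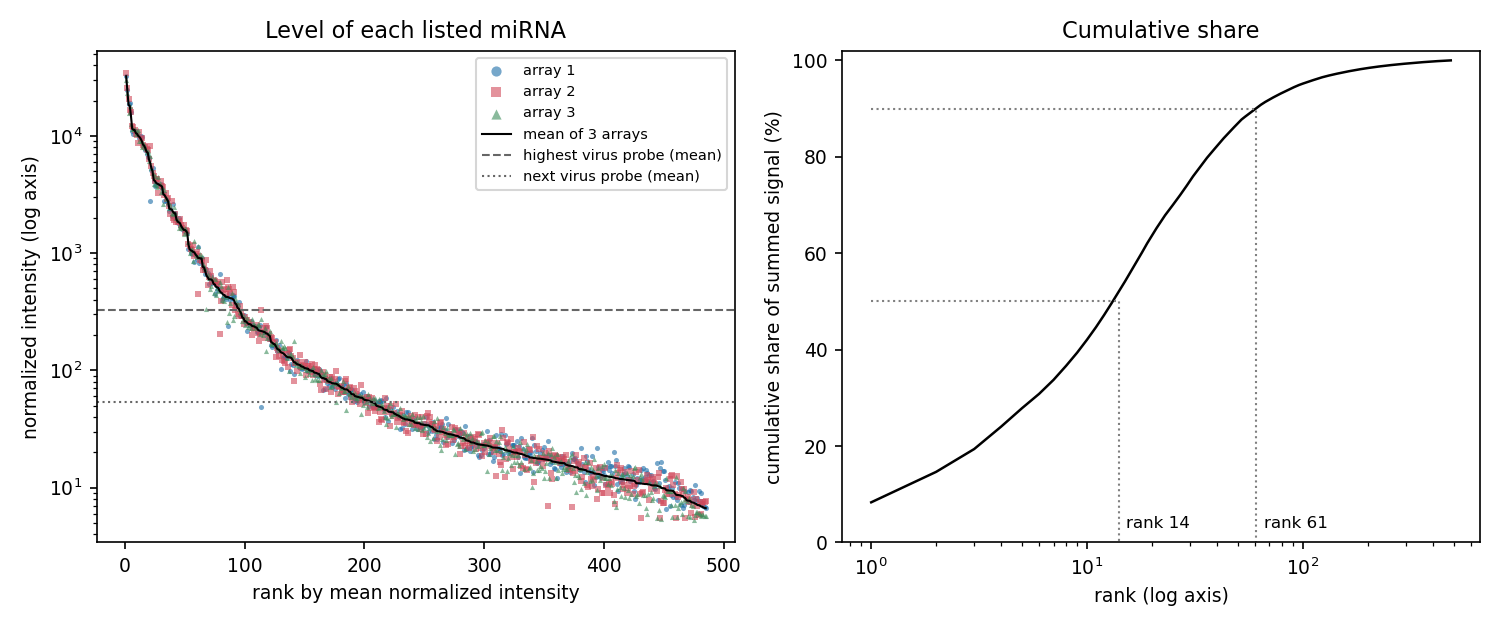
Left, normalized intensity (log axis) of the 485 listed miRNAs on each control array (symbols) and their mean (line) against rank, with the mean of the brightest and the next virus probe as dashed and dotted lines. Right, cumulative share of the summed signal (%) against rank on a log axis, which passes 50% at rank 14 and 90% at rank 61.

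The arrays ordered the miRNAs alike. Across the 485 members, Pearson's r of log2 values lay between 0.989 and 0.990 and Spearman's rho between 0.969 and 0.974 for the 3 pairs of arrays, given as a description across miRNAs, which are not independent replicates. Arrays 1 and 2 shared a slide and array 3 lay on another. Each array in turn was the farthest from the middle value for 28.9%, 38.1% and 33.0% of the members, so array 3 was not apart on this measure. Its spike controls were dimmer before normalization, with medians of 3336 and 2984 on array 3 against 5515 and 4140 on array 1 and 5500 and 3820 on array 2. Of the 20 brightest, 19 were among the 20 brightest on every array. Counting probes of all kinds, 595, 588 and 589 were listed on the 3 arrays.

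miR-690 was the brightest miRNA on every array. It read 32675, 34275 and 29748 on arrays 1, 2 and 3, a mean of 32232 ± 2296 (SD, n = 3) and 8.32% of the summed signal. Its 3 values lay above every value of any other miRNA. RefSeq places it on the minus strand of chr16:28599940-28599961, within the bounds of Fgf12, which encodes a fibroblast growth factor homologous factor.

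miR-126-3p, the best known miRNA of endothelial cells and a regulator of vessel integrity, was next with 24543, 25735 and 23160 (mean 24480 ± 1289, 6.32% of signal). It lies on the plus strand at chr2:26591402-26591423 within Egfl7, a gene for a secreted endothelial factor. Its values did not overlap those of miR-690 above it or of miR-23b below it.

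miR-23b read 18767, 20624 and 15565, and miR-5126 read 19179, 16752 and 18093. Their ranges overlapped and their order changed between arrays, with miR-5126 the brighter on arrays 1 and 3. miR-23a, whose strand lies at chr8:84208563-84208583 in a cluster with miR-27a and miR-24, followed with 15823, 16092 and 12617, below both on every array. Both miR-23 strands were lowest on array 3.

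miR-26a, which restrains growth regulators such as Ezh2 and is a miRNA that the study examined in podocytes, ranked at place 6 with 10893, 12200 and 11431 (mean 11508 ± 657, 2.97% of signal). Its sequence occurs at chr9:119031811-119031832 within Ctdspl and at chr10:126995543-126995564 within Ctdsp2, both genes for small phosphatases. let-7a read 10360, 11976 and 11444, and miR-3968 read 11040, 11205 and 11484. These 3 miRNAs could not be put in order, since their ranges overlapped. miR-5100 averaged 10575 ± 396, miR-24 10420 ± 314 and miR-30a 10009 ± 1189, again with overlapping ranges.

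Among the next brightest, let-7c averaged 9808 ± 925, miR-30c 9498 ± 484 and miR-3473b 9064 ± 941. miR-3960 (8439 ± 168) and miR-762 (8229 ± 96.7) were steadier. miR-29a, a repressor of collagens and other matrix genes, averaged 7846 ± 233. let-7d (7309 ± 341), let-7f (7196 ± 530) and let-7b (6315 ± 159) closed the 20. Of the 19 pairs of neighbours in this order, 7 had ranges that did not overlap and 9 kept their order on all 3 arrays.

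**Figure D2:**
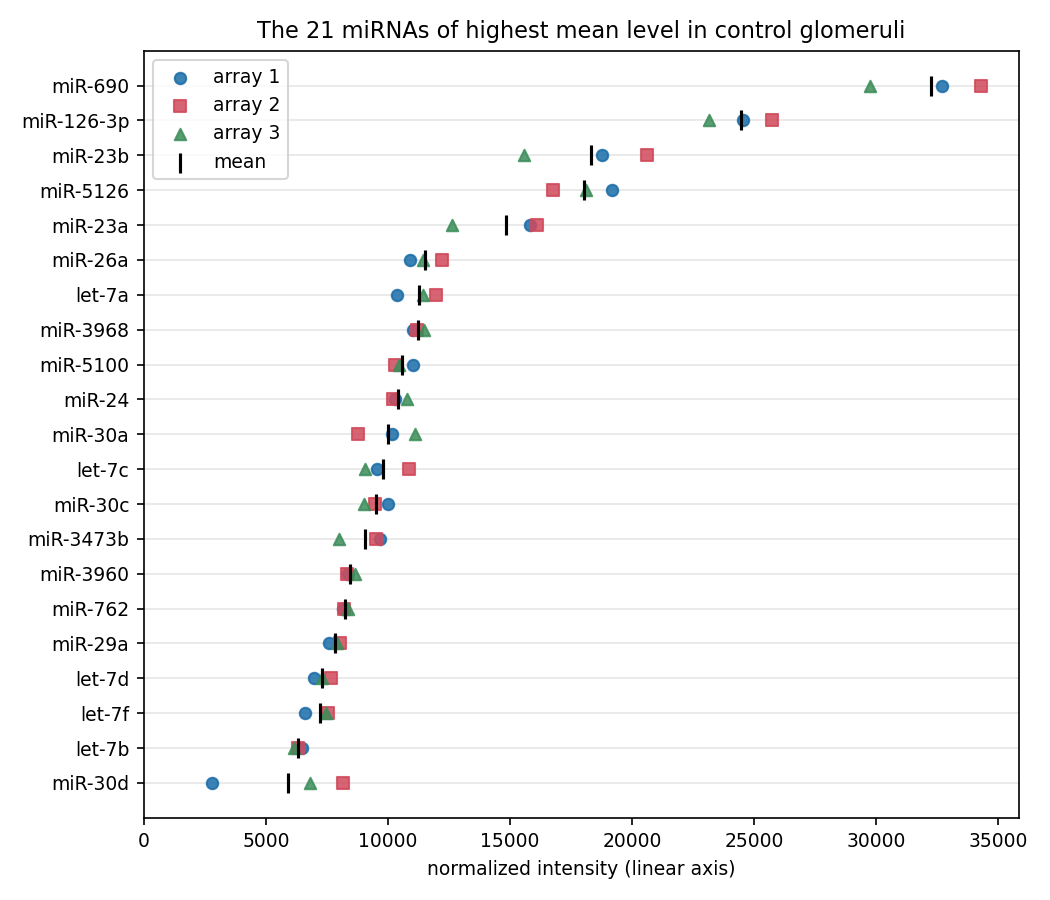
Normalized intensity (linear axis) of the 21 brightest miRNAs on each control array, with the mean as a bar. miR-690 and miR-126-3p stand clear of the rest, most neighbours from rank 6 down overlap, and miR-30d spans 2780 to 8157.

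The next miRNA, miR-30d, was the least steady of the bright ones. It read 2780, 8157 and 6783, with array 1 far under the others. By contrast miR-145 (5328 ± 172), known for its part in smooth muscle, varied little. miR-720 (4991 ± 306) has since been withdrawn from miRNA catalogues as a fragment of a transfer RNA. Others above 3000 included miR-16 (4205 ± 318), miR-29b (4123 ± 378), miR-30b (3972 ± 265), miR-10a (3907 ± 314), miR-143 (3860 ± 592), miR-27b (3797 ± 142) and miR-10b (3183 ± 542). miR-10a and miR-10b lie in Hox clusters, within Hoxb3 on chromosome 11 and within Hoxd3 and Hoxd4 on chromosome 2.

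Part of the signal came from miRNAs with high numbers, which were named late, as numbers are given in order of discovery. Members numbered 500 and over made up 216 of the 485 and 7 of the 20 brightest. They held 35.6% of the signal (range 34.8% to 36.5% over arrays), less than their share of the members. Those numbered under 500 held 64.4% and had a median level of 49.5. The median was 22.7 for numbers from 500 to under 1000, 27.7 from there to under 3000 and 27.3 for 3000 and over. A few very bright members therefore carried the high numbers' share, with miR-690 in the first of these bands, miR-2861 (3758 ± 406) in the next and miR-5126 in the last. The share of probes listed on all 3 arrays was 45.7% for numbers under 500, and 33.8%, 49.6% and 47.5% in the 3 higher bands in the same order.

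Base composition differed among the bright members. Of the matched members, 8 had a G and C content of 80% or more, and 5 of them were among the 50 brightest. They were miR-5126 (100% G and C), miR-762 (81.8%), miR-2861 (94.7%), miR-149* (81.8%) and miR-2137 (85.7%). These 8 held 8.95% of the signal at a median level of 1909, beside 35.7 for all members. The 97 matched members with 40% to under 50% G and C held 44.9%, at a median of 127. Across the 299 matched members, Spearman's rho between G and C content and mean level was -0.16, and it was -0.22 for those numbered under 500 (n = 199) and 0.26 for those numbered 500 and over (n = 100). These correlations describe probes on the same arrays, whose binding itself depends on base composition. The part of probe binding in these levels was not tested.

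The 5′ base also differed. U was the first base of 30 of the 50 brightest matched members (60%) and of 89 of the other 249 (35.7%). A 5′ U is favoured by Argonaute proteins, as background. Length did not separate them, with a median of 22 bases in both sets.

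Some bright members of different families shared runs of bases. Only the 75 matched members of the 100 brightest could be compared. Among their 2719 pairs of different seed, the median longest shared run was 4 bases, and 10 pairs (0.368%) shared 9 or more. miR-3968 and miR-5100 shared cgaauccca, from base 1 of the first and base 2 of the second. miR-3473b and miR-5128 (3125 ± 327) shared gagauggcu, a stretch that also stands in the B2 repeat, a short element scattered through mouse genomes. miR-5126 and miR-762 shared ggggccggg, and miR-10a and miR-100 shared guagauccgaa, the longest run found. Whether RNA of one member bound the probe of the other was not tested.

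Grouped by seed, the 299 matched members fell into 245 seeds, 29 of which had more than 1 member. The let-7 family was the brightest. Its 9 listed members, let-7a to let-7g, let-7i and miR-98, summed to 12.3% of the signal, with 11.8%, 12.6% and 12.4% on arrays 1, 2 and 3. let-7 miRNAs rise as cells differentiate and repress growth genes such as Hmga2 and Ras. Within the family let-7a was 6.66 times as bright as let-7e, which differs from it at 1 position, and 91.8 times as bright as miR-98 (123 ± 10.9). The members let-7g (2401 ± 106) and let-7i (1492 ± 33.6) lay between.

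Several of the next families had 1 matched member, as for miR-690, miR-126-3p and miR-5126. The seed of miR-30a, miR-30c and miR-30e summed to 5.34% of the signal. Counted by name instead, all 5 unstarred miR-30 strands on the chip were listed and summed to 7.89%, with 7.25%, 7.98% and 8.45% on the 3 arrays. Array 1, which held the low reading of miR-30d, was lowest. miR-30 miRNAs are known to protect podocytes, with Notch1 among their targets. miR-30a and miR-30e differ at 1 of 22 positions, and miR-30a was 8.45 times as bright as miR-30e (1184 ± 82.0).

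By name, miR-23a and miR-23b summed to 8.56% of the signal (9.00%, 9.20% and 7.44%), beside miR-690 alone at 8.32% (8.51%, 8.59% and 7.86%). The miR-23 sum was the higher on arrays 1 and 2 and the lower on array 3. Seed grouping left miR-23b out, as it was not matched. The 3 miR-29 members summed to 3.81%, with miR-29a 2.84 times as bright as miR-29c (2767 ± 147), from which it differs at 1 position. miR-26a and miR-26b (2195 ± 276) summed to 3.54%. The family of miR-16, miR-322, miR-15a, miR-195, miR-497 and miR-15b, whose members slow the cell cycle, summed to 2.85% and was led by miR-16. Within it miR-322 averaged 2365 ± 199 and miR-15b 196. Together the 10 brightest seeds of matched members held 53.9% of the signal.

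**Figure D3:**
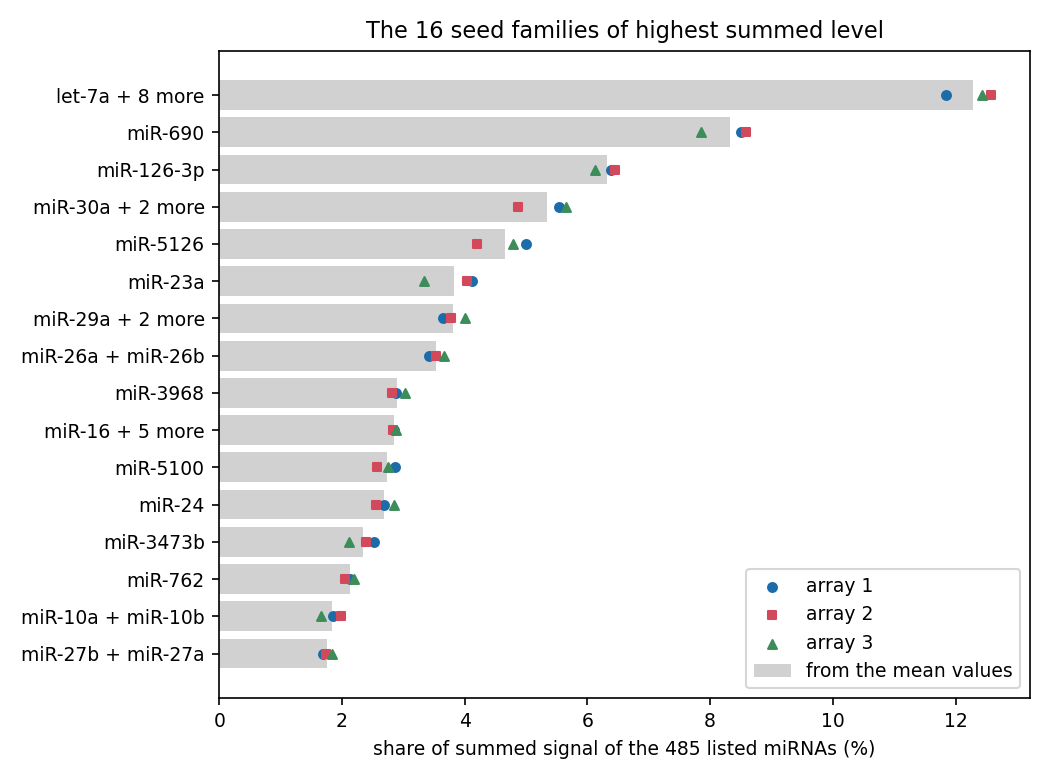
Share of the summed signal (%) of the 16 brightest seed families, with the share from the mean values as bars and each control array as a symbol. Only members matched to a sequence enter a family. let-7 leads at 12.3% and miR-690, a seed with 1 member, has 8.32%.

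miRNAs cut from a common transcript had unequal signals. In the cluster of miR-23b, miR-27b and miR-24, miR-23b was 4.82 times as bright as miR-27b, and in its paralog miR-23a was 4.95 times as bright as miR-27a (2999 ± 221). miR-24 has the same mature sequence from both clusters and cannot be assigned to either. In miR-17-92, a cluster known for driving proliferation, all 6 unstarred strands were listed and ranged from 703 ± 35.3 for miR-19b to 37.8 ± 2.51 for miR-18a. They summed to 0.420% of the signal. miR-143 and miR-145 lay within 1.38 times of each other, and let-7a, let-7f and let-7d, neighbours on chromosome 13, within 1.56 times. RefSeq gives let-7f and miR-19b a further locus each on chromosome X. The gene name Mirlet7a-1 points to a further locus of let-7a, and the name of the miR-92a-2* probe to one of miR-92a. The signals of these miRNAs cannot be assigned to a single transcript. In the cluster of miR-322 and miR-503, miR-322 averaged 2365 ± 199, miR-503 93.2 ± 9.84, miR-542-3p 53.3 ± 4.66 and miR-542-5p 22.7 ± 2.81.

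Signal was summed over lists of miRNAs known from the cell types a glomerular preparation can hold. The lists were chosen with earlier results of these data known, so their levels are a description and not a test of the tissue label. Of all mouse probes, 44.3% were listed on all 3 arrays, which is the share to set beside each count of listed members. All 8 podocyte-associated miRNAs were listed (miR-23b, miR-24, miR-26a and the 5 miR-30 strands), with a summed share of 18.3% and a range over arrays of 17.7% to 18.8%. Their median level was 9754, beside 35.7 for all members. Other cell types also make these miRNAs, so the share is not one of podocytes. All 5 endothelial miRNAs were listed and summed to 6.81%. miR-126-3p made up nearly all of that, while miR-126-5p averaged 1578 ± 136, miR-221 174 ± 14.6, miR-92a 81.3 ± 2.84 and miR-222 48.0 ± 9.07. All 5 mesangial and smooth muscle miRNAs were listed and summed to 2.65%, led by miR-145 and miR-143, with miR-199a-3p at 762 ± 45.1, miR-199a-5p at 233 ± 6.48 and miR-214 at 93.5 ± 5.94.

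Lists of other sources were dim. Of 4 proximal tubule miRNAs, 3 were listed, at 0.252% of the signal. miR-192 read 433, 493 and 391, miR-194 read 442, 511 and 267, and miR-204 averaged 131 ± 6.04, while miR-215 was listed on no array. The 5 miR-200 family miRNAs of epithelia summed to 0.290%, led by miR-200a (455 ± 95.4) and miR-200b (416 ± 99.3), with miR-429 at 149 ± 16.2, miR-200c at 68.8 ± 11.9 and miR-141 at 33.8 ± 2.37. On array 3 miR-194 and miR-200b were at their lowest, and array 2 had the highest summed share of both lists (0.286% and 0.329%, against 0.208% and 0.252% on array 3).

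All 6 leukocyte miRNAs were listed and summed to 0.175%. miR-146a, which other cells also make, held most of it at 421, 590 and 258. miR-223 of neutrophils and monocytes averaged 129 ± 27.1, miR-150 of mature lymphocytes 62.5 ± 7.35, miR-142-5p 35.4 ± 3.99 and miR-142-3p 19.4 ± 5.70. miR-155, of activated lymphocytes and macrophages, stood at 7.25 ± 0.958, among the dimmest values listed. For red blood cells, miR-451, which is cut by Argonaute itself, read 828, 945 and 952, and the probe shared by miR-486 and miR-3107 averaged 20.9 ± 7.90. miR-144 was listed on arrays 1 and 3 only. Of 11 miRNAs of muscle, liver, brain and pancreas, 3 were listed on all arrays, all from muscle. These were miR-133b (23.3 ± 4.99), miR-1a (21.9 ± 4.96) and miR-133a (17.6 ± 3.10). Their means lay under 24.1, the median of the listed virus probes, of which 28.2% were listed on all 3 arrays. Being listed at such levels is therefore not a sign that the miRNA was present. miR-122 of liver and miR-9 of brain were listed on 2 arrays and miR-375 on 1. miR-124, miR-206, miR-216a and miR-217 were listed on none, and miR-208a had no probe of that name.

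**Figure D4:**
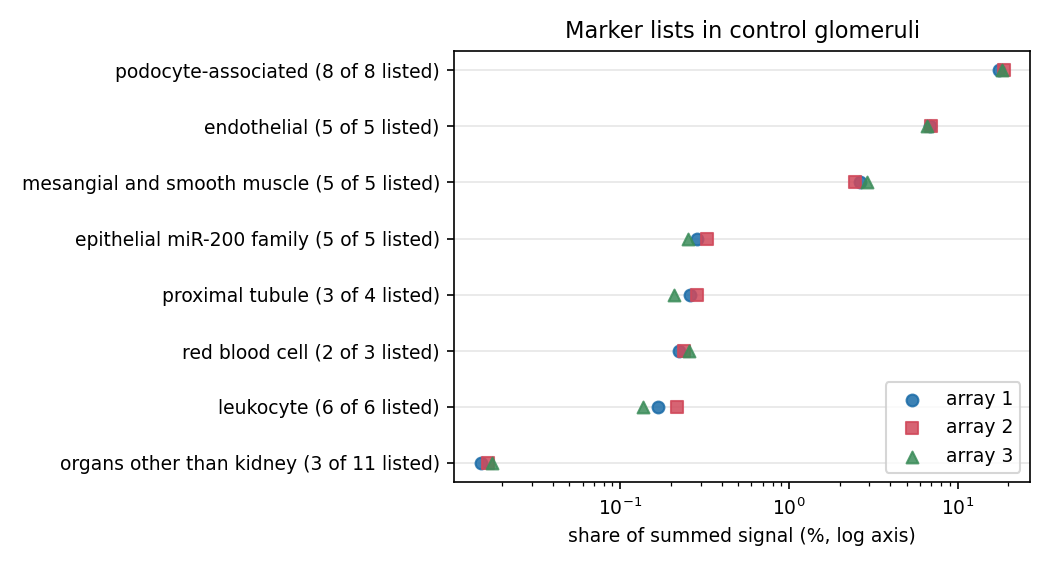
Share of the summed signal (%, log axis) of 8 marker lists on each control array, with the number of listed members of each. The podocyte-associated, endothelial and mesangial lists lie above 2%, the miR-200, tubule, red cell and leukocyte lists under 0.4%, and the list of other organs under 0.02%.

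Probes for both strands were paired by name for 389 hairpins, 273 named as a strand and its star and 116 as 5p and 3p. Both strands were listed on all 3 arrays in 87 pairs. Of the 62 such star pairs, the strand without the star was higher on all 3 arrays in 40, the star strand in 16, and the order was mixed in 6. No background limit was applied to these counts, and they take in dim pairs on both sides, whose order is less certain. Examples are miR-872 (22.5) over miR-872* (14.8) and miR-3103* (20.6) over miR-3103 (8.44). Among the 25 pairs named 5p and 3p, each arm was higher on all 3 arrays in 11, and 3 were mixed. In a further 86 star pairs only the unstarred strand was listed on all arrays, and in 22 only the star strand was. In the remaining 103 star pairs neither was. These pairs leave out star strands that carry the number of a locus, such as miR-24-1*. Of the 16 of those listed together with their unstarred strand, the unstarred strand was higher on all 3 arrays for 13 and the star strand for 2, with miR-128-2* at 217 against miR-128 at 10.4. The 107 listed star strands had a median level of 25.2, against 41.7 for the other members, and 2 of them were among the 50 brightest. All star strands, bright or dim, together with the lower arm of each 5p and 3p pair held 4.46% of the signal (range 4.28% to 4.69%). The 16 star strands that were higher than their partner on all 3 arrays accounted for 2.08%. The brightest of the 24 negative control spots served as the background of an array. In 41 of the 87 pairs the dimmer strand was not above it on every array, and a ratio of such a pair is given as a lower bound. Each array's value of the dim strand was raised to that background where it lay under it (a mean background of 11.2). The ratios and bounds are of means over the arrays, so a single array can lie under a bound.

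**Figure D5:**
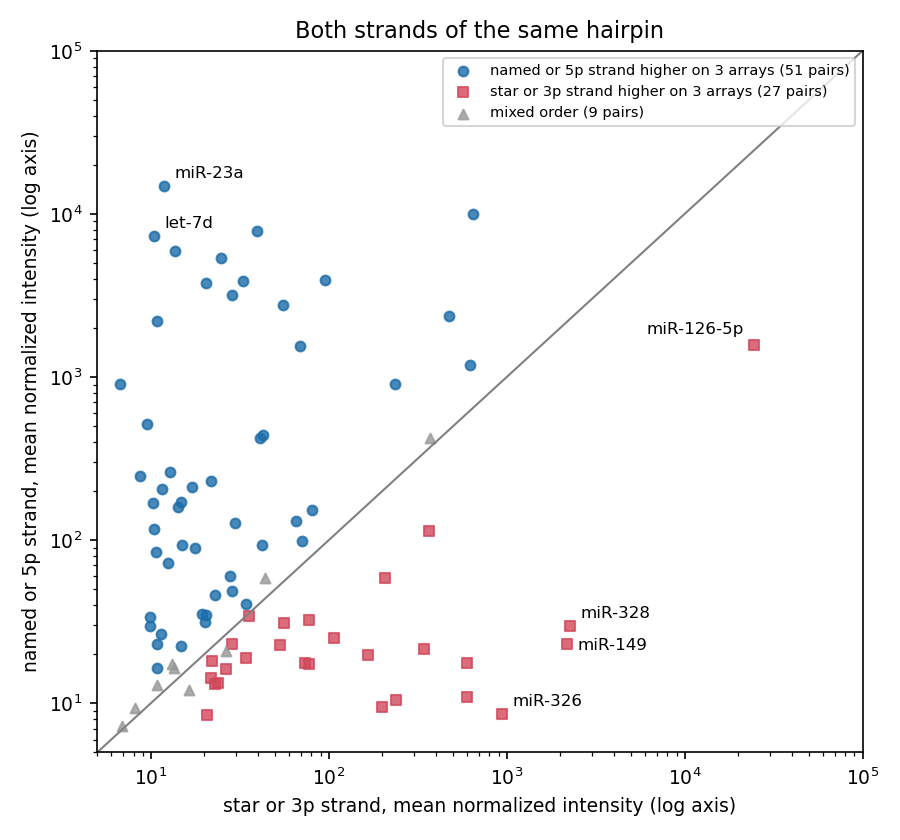
Mean normalized intensity of the unstarred or 5p strand (vertical) against that of the star or 3p strand (horizontal) of 87 hairpins, both on log axes, with the line of equal level. 51 pairs lie above the line on all 3 arrays and 27 below it on all 3, with miR-126, miR-328, miR-149 and miR-326 far below.

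Among the 87 pairs with both strands listed, the widest gap in favour of the unstarred strand was that of miR-23a. Pairs whose star strand was unlisted are not ranked here, among them the brighter miR-23b, whose star strand was listed on no array. miR-23a* read 12.3, 14.7 and 8.52 and was above background on 1 array, so that miR-23a was at least 1095 times as bright. let-7d was at least 633 times as bright as let-7d* (10.4 ± 0.535), also above background on 1 array. miR-30d was at least 422 times as bright as miR-30d* (14.4, 10.2 and 16.5), above background on 2 arrays. On array 1, which held the low reading of miR-30d, the ratio was 192. miR-26b was at least 170 times as bright as miR-26b*, above background on 1 array. On array 1 that ratio was 156. miR-145* (24.7 ± 4.37) was above background on all 3, and miR-145 was 216 times as bright. Probes for virus miRNAs, described below, had a median of 24.1. Ratios over strands that dim, here and for miR-149 and miR-328, are therefore also uncertain.

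In the opposite direction, miR-326* (895, 1024 and 919) was at least 84.4 times as bright as miR-326 (7.08, 11.1 and 7.51), which was above background on 0 arrays. miR-149* (2190, 2156 and 2210) was 94.2 times as bright as miR-149 (18.9, 21.6 and 29.1). miR-328* (2614, 2009 and 2151) was 76.2 times as bright as miR-328 (24.6, 31.6 and 32.6). The ratio was at least 47.9 for miR-3102* and at least 33.8 for miR-92b*, whose partners were above background on 1 and 2 arrays. In each of these pairs the star strand was higher on all 3 arrays, with no overlap. G and C content was 81.8% for miR-149* and 60.9% for miR-149, 70.8% for miR-326* and 66.7% for miR-326, and 62.5% for miR-92b* and 63.6% for miR-92b. miR-328* and miR-3102* were not matched to a sequence. miR-149* shared a run of 9 bases with miR-5126 and a run of 9 with miR-92b*, and binding of such RNA to its probe was not tested. For these hairpins the star marked the brighter strand.

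The hairpins of miR-23a and miR-149 show where the strands lie, and are given because they stand at opposite ends of this comparison. Capitals mark both mature strands, the 5p strand first. The bright strand is the 3p strand in both, named miR-23a in the one and miR-149* in the other.
Mir23a: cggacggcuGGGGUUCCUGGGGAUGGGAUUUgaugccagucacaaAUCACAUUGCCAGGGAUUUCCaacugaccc
Mir149: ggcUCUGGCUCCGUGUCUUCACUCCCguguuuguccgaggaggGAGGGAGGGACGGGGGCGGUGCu
The hairpins lie on the plus strand at chr8:84208518-84208592 and at chr1:92850378-92850443, the second within Gpc1, the gene of a glypican. At miR-126, the 3p strand was 15.5 times as bright as the 5p strand, with 5p over 3p ratios of 0.063, 0.067 and 0.063 on the 3 arrays.

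In 42 of the 87 pairs the means of the strands lay within 4 times of each other, and in 9 the order changed between arrays. In most of the 42, both means lay under 53.4, the mean of the second brightest virus probe. An example is miR-615-5p (13.0) and miR-615-3p (10.9). Dim probes lie close to each other near background, so the 42 are not a count of hairpins that yield both strands alike. miR-140 (421 ± 158) and miR-140* (373) changed order, and so did miR-155 and miR-155*, both near the lowest listed values. miR-30a was 15.5 times as bright as miR-30a* (644 ± 276), with ratios of 13.8, 10.1 and 33.3 on the 3 arrays. Its neighbour in sequence miR-30e was 1.90 times as bright as miR-30e* (624 ± 78.0), with 1.62, 2.26 and 1.89. The star strands miR-30a* and miR-30e* are near-identical, and how far their probes bound each other's strand was not tested. The paralogs of miR-24 have star strands with probes of their own, and miR-24-2* averaged 412 ± 42.4 and miR-24-1* 142 ± 17.5. Both star strands are near-identical in sequence. How far each probe bound the strand of the other was not tested, so these levels are not a measure of each locus.

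The spread over arrays grew as the signal fell. The median coefficient of variation (CV, the SD over the mean) was 5.49% for the 20 brightest, 7.37% for the 100 brightest, 14.5% for the other 385 and 19.5% for the members under 25. Among the 100 brightest the steadiest were miR-762 (CV 1.17%), miR-149* (1.25%), miR-2137 (1.31%), miR-22 (1.31%) and miR-211* (1.38%). In 7 of the 100 the CV was over 30%. miR-322* read 663, 206 and 562, miR-103 read 1129, 445 and 1153, and miR-30a* read 735, 864 and 334. miR-140 read 238, 512 and 513. In each of these a single array was low, and it was array 2 for miR-322* and miR-103, array 3 for miR-30a* and array 1 for miR-140. The same gaps stood in the scanner signal before normalization, with 700, 290 and 637 for miR-103 and 1722, 4643 and 3527 for miR-30d. For these members the mean stands for 2 like arrays and 1 unlike array. miR-106b, at rank 114, had the widest spread of all, with 49.0, 327 and 272.

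The lower end of the profile was set against probes for miRNAs of mouse viruses, which specific pathogen-free mice are not expected to carry. Of 39 such probes, 11 (28.2%) were listed on all 3 arrays, against 44.3% of the mouse probes. The means of these listed virus probes ran from 9.08 to 325 with a median of 24.1. mcmv-miR-M23-1-5p, of murine cytomegalovirus, read 337, 289 and 350, and the next virus probe averaged 53.4. In all, 95 mouse miRNAs averaged more than the brightest virus probe and held 94.8% of the signal, and 206 averaged more than the next and held 98.5%. The other 390 members averaged less than the brightest virus probe, among them miR-199a-5p, miR-221, miR-204, miR-223 and miR-214. Of these, 279 also averaged less than the next virus probe, among them miR-222, miR-141, miR-142-3p, miR-155, miR-486, miR-1a and the weaker strand of the 5 pairs at each end of the strand ratio.

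The rule that a member be listed on all 3 arrays cut through the dimmest values. Just inside it were miR-155* (6.90), miR-344c* (6.87), miR-144* (6.77), miR-744* (6.71) and miR-669n (6.67). Just outside it, 77 mouse probes were listed on 2 arrays and 118 on 1, and 416 were listed on none. The highest value outside was that of miR-470*, listed only on array 3 at 69.99, followed by miR-449a at 8.07 and 21.2 on arrays 1 and 2.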

How the data were processed

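Per the labels and the study's methods, total RNA of isolated glomeruli was hybridized to 3D-Gene chips and scanned, and the authors deposited background-corrected intensity values after global normalization. Against the scanner output, each listed value was about the spot median minus the mean of 1818 blank spots (30.8 to 33.7 on the 3 arrays), times an array factor of 1.67, 1.78 and 1.97. How the software left a probe unlisted, and its version, are not given in the sources used here. Probe names came from the scanner output. Means, shares of the summed signal of the 485 members, strand ratios and CVs were computed with Python 3.11.15, pandas 2.3.3 and numpy 2.4.6, and plots with matplotlib 3.10.9. Lower bounds of strand ratios are of means over the arrays and used the brightest negative control spot of each array. The profile of means and the shares of its brightest members were checked on simulated data without background or unlisted values. Strand ratios, their lower bounds, CVs, seed families and shared runs were not checked in this way. Old names were matched to RefSeq strands through a table written by hand, and probes that carry several identifiers (7 members) were left unmatched. Values of 9 arrays were deposited, and 3 were used.

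The miRNAs named were the 20 brightest, up to 4 members of each leading seed family and cluster, all members of the marker lists, the 5 strand pairs at each end of the ratio, the 5 members at each end of the CV among the 100 brightest and those next to the lowest values. Others named were chosen after their values were seen. The members and lists were chosen with earlier results of these data known. Alternatives were each array left out, the scanner signal without array factor, the deposited series table, geometric means, a looser listing rule and a floor of 25. The number of arrays limits the precision.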

Additional observations from a re-analysis of the deposited data

Results flagged for a closer look

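Outside the mouse profile, 5 virus probes gave scanner signal above the brightest of the 24 negative control spots on each of the 3 arrays (39, 37 and 40). The normalized means were 325 for mcmv-miR-M23-1-5p, 53.4 for mcmv-miR-M23-2, 47.2 for mcmv-miR-M87-1, 45.6 for mghv-miR-M1-9 and 33.2 for mcmv-miR-m88-1. The cause was not tested. The spot of miR-20a* on array 1 read 369 before normalization, carried the only quality mark on that array and was left unlisted, while the same probe read 35 and 34 on arrays 2 and 3 and was listed there at 13.2 and 5.84. Groups of 3 arrays are too small for a test of single outlying values.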

How the results depend on the processing

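Of 57 values under alternative settings, 53 stayed within the spread over arrays or, for counts, within 1.5 times the main value, and miR-690 remained the brightest miRNA under all 8 settings that rank miRNAs. Leaving out each array in turn gave 507 to 514 listed members, 8.18% to 8.54% of signal for the brightest miRNA, 41.6% to 42.6% for the 10 brightest, 13 to 14 miRNAs for 50% of the signal, 4.38% to 4.57% for star strands and lower arms, 12.1% to 12.5% for let-7, 56 to 62 pairs with the unstarred or 5p strand higher and 313 to 343 for the brightest virus probe. With a floor of 25 on the mean, star strands and lower arms held 4.24%, and 20 pairs had the unstarred or 5p strand higher, because most weaker strands lie under that floor. With probes listed on at least 1 array and unlisted values set to 0, 98 pairs did. The brightest virus probe stood at 182 in scanner signal over the blank mean, which lacks the array factor. No paired analysis was possible because the profile holds 1 group. Precision is limited by 3 arrays, by probe binding, and by signal of probes without an expected target, which reached 325 for 1 virus probe and 53.4 for the next.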
